A study of Mus musculus with 18 samples.

Results

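Among the regions where methylated DNA of mouse heart muscle gave peaks, 55 autosomal regions had a peak score of 500 or more in at least 1 library. They were chosen on that score alone, from 148111 autosomal regions (152196 with the sex chromosomes) made by merging the peaks of all libraries where they shared at least 1 base. Scores are those that the authors' peak caller wrote into the deposited lists, on a scale that the sources used here do not name, and the lowest in every list was 50. Because the scores chose the regions, scores and numbers of libraries are given below as a description, with no test.

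The 18 libraries came from male C57BL/6JR mice that were 12 weeks old, 3 mice in each of 6 groups. In 5 groups the left anterior descending coronary artery was tied to cause myocardial infarction (MI), and tissue was taken 10 min later, or after 1 h, 6 h, 24 h or 72 h. The sham group had the operation and a suture without the tie. Sodium pentobarbital was the anaesthetic, at 50 mg/kg in the design text, while the labels of the MI libraries run up to 63 mg/kg. The labels call the tissue myocardial and the cell type cardiomyocytes and describe no isolation of cells. Heart tissue also holds fibroblasts, endothelial cells and, after infarction, white blood cells, and methylated DNA libraries carry no expression by which the cell type could be checked.

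Methylated DNA immunoprecipitation sequencing (MeDIP-seq) pulls down sheared DNA with an antibody against 5-methylcytosine and reads the captured fragments. In mammals this mark sits mainly on the cytosine of CpG, a C followed by a G. It is dense in repeats such as the satellite DNA beside centromeres and is usually absent from CpG-rich gene starts. A genome assembly holds only a few of the copies of satellite DNA, ribosomal RNA genes and other high-copy sequence, so reads from many copies can be placed on the few that are assembled. Mouse chromosomes carry their centromere near one end, where numbering begins. The part of such reads in these scores was not tested.

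Of the 55 regions, 6 reached into the window from 250 bases before to 50 bases after a gene start in the RefSeq table (GRCm38.p6). Of these windows, 4 are printed to show how different the sequence at such regions can be. A window can run past its region, and the highest-scoring peak of a region need not lie on the window. Capitals mark each CpG. The first lies in the region with the highest score of all, at the long noncoding RNA gene Gm40237 (chr4:118547156-118547455, plus strand). The second has one of the densest runs of CpG, at the noncoding RNA gene 3110070M22Rik beside Tmem267 (chr13:119488335-119488634, minus strand). The third has no CpG, at the gene model Gm46731, in a region that also overlaps Fbh1, a DNA helicase gene (chr2:11745149-11745448, minus strand). The fourth is that of Duxf3, a member of the Dux array of double homeobox genes (chr10:58233040-58233339, minus strand).
Gm40237: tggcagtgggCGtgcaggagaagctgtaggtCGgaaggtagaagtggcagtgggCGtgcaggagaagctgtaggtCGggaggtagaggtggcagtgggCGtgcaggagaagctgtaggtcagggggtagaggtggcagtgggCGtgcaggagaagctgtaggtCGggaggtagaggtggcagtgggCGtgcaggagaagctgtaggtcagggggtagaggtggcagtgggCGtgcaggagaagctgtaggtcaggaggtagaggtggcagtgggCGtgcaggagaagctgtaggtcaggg
3110070M22Rik: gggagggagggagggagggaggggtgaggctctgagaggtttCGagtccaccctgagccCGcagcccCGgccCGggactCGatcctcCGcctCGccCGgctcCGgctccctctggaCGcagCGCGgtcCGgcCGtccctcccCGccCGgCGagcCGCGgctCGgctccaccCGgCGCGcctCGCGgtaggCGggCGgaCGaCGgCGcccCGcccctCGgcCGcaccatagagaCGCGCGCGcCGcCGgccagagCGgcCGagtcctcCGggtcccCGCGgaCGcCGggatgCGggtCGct
Gm46731: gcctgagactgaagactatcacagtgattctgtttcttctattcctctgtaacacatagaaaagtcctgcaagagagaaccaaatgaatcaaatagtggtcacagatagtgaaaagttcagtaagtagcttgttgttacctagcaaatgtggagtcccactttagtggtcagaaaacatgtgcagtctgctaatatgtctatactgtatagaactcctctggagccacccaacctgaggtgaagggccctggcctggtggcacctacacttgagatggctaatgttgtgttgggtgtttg
Duxf3: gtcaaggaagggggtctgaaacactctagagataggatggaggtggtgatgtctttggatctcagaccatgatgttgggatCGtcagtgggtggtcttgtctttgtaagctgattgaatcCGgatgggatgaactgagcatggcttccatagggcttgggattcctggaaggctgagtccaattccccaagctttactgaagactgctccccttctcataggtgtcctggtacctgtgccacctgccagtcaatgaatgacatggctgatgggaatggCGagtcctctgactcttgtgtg

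The Gm40237 window is a tandem repeat. Moved along itself by 44 bases it matched at 96.1% of positions, and moved by 88 bases at 97.6%. Of all 32851 start windows in the table, 0.0548% (18 windows) reached 80% at any shift from 10 to 100 bases. The most frequent run of 44 bases occurred 3 times without a change and holds 1 CpG.
Gm40237 repeat unit: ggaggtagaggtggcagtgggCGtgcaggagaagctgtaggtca
The whole window holds 10 CpG, against a median of 7 over all start windows. A peak covered the whole window in all 18 libraries.

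The window of 3110070M22Rik holds 48 CpG at 79.3% G and C. Only 1.22% of start windows hold 48 or more. A peak touched it in all 18 libraries and covered it whole in 11 of them. The start of Tmem267 on the other strand (chr13:119488223-119488522) overlaps it and holds 50 CpG, and a peak touched it in 13 libraries. An earlier start of Tmem267 (chr13:119487836-119488135) holds 22 CpG and was touched in 2 libraries. The CpG-free window of Gm46731 was touched by a peak in 18 libraries and covered whole in 0. Windows with no CpG made up 5.43% of the table and 2.09% of the 2826 windows under any autosomal region. The Duxf3 window holds 3 CpG and lay wholly under a peak in all 18 libraries.

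The regions recurred in nearly every mouse. A peak was present in all 18 libraries in 54 of 55 regions (98.2%), and the exception, inside Mov10, lacked a peak in 72 h replicate 1 alone. Recurrence grew with the highest score. A peak in all 18 libraries was found in 4.48% of regions with a highest score from 100 to under 150, in 51.6% from 150 to under 250 and in 94.6% of the 959 regions from 250 to under 500. Part of this is by construction, since more libraries give more chances of a high value.

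**Figure D1:**
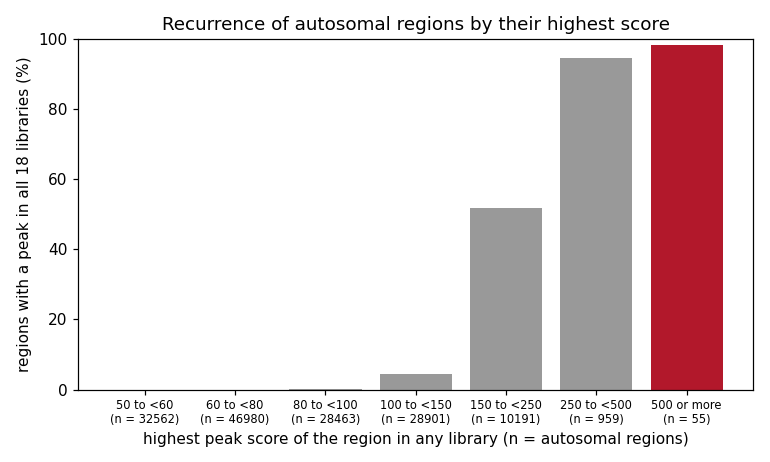
Percentage of autosomal regions with a peak in all 18 libraries (vertical axis) by the highest score of the region in any library (horizontal axis, number of regions below each bar). The red bar is the set of 55 regions with a score of 500 or more, at 98.2%, and the bar to its left is at 94.6%.

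A library that took no part in the choice gave the same picture. Each library was left out in turn, and the regions were chosen from the other 17, which gave 52 to 55 regions. The library left out had a peak in 976 of these 977 choices, and in every chosen region for 17 of 18 libraries. Its median score there ran from 381 to 582 over the libraries, while the median of its whole list ran from 69.1 to 75.9. Between 15 and 31 of the chosen regions were at 500 or more in it. Over all autosomal regions of the other 17 libraries, the library left out had a peak in 21.9% to 37.7%.

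A score of 500 was less constant than a peak. Of 989 values with a peak, 426 (43.1%) were 500 or more. In 13 regions every library was at 500 or more, in 9 regions 7 to 17 libraries were, in 20 regions 2 to 6, and in 13 regions a single library was. These 13 single libraries were 72 h replicate 1 and 72 h replicate 2 for 3 regions each, sham replicate 2 for 2, and 5 other libraries for 1 region each. The longest lists (60653 peaks in 72 h replicate 2, 60130 in sham replicate 2 and 58992 in 72 h replicate 1) had 33, 33 and 34 of the regions at 500 or more. The shortest lists (34255 peaks in 6 h replicate 3 and 37084 in 10 min replicate 2) had 15 and 18. Lists of middle length did not keep this order: 10 min replicate 1, with 52259 peaks, had 21 regions at 500 or more, and 1 h replicate 3, with 45466 peaks, had 24.

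**Figure D2:**
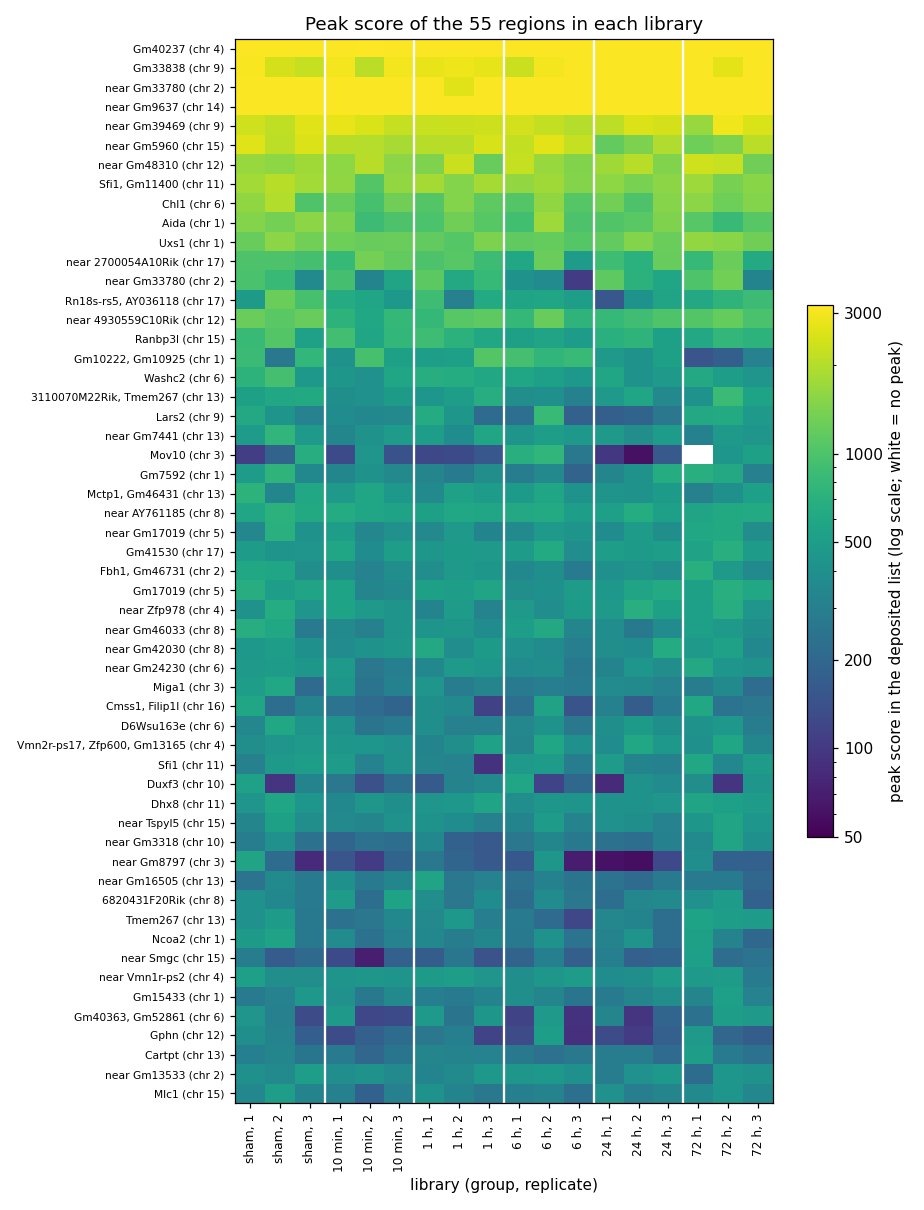
Peak score of each of the 55 regions (rows, highest score first, named by the genes they overlap or by the nearest gene) in each of the 18 libraries (columns, 3 per group), on a log colour scale where white means no peak. The top rows include 3 regions at 3100 or more in at least 17 of 18 columns, and the single white cell is the Mov10 region in 72 h replicate 1.

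At the top of the scale the score met a ceiling. The value of exactly 3100 was given to 57 autosomal peaks, all within 4 of the regions, and only 2 peaks scored higher, so peaks at 3100 cannot be ranked against each other. The region at chr14:19414950-19419899, 9858 bases from the pseudogene Gm9637, was at 3100 in all 18 libraries. The region over Gm40237 (chr4:118546347-118549303) was at 3100 in 17 libraries and at 3173 in 10 min replicate 2. The region at chr2:98665967-98667955, 34644 bases from the noncoding RNA gene Gm33780, was at 3100 in 17 libraries and at 2618 in 1 h replicate 2. The fourth, inside the noncoding RNA gene Gm33838 (chr9:35304550-35306414), ranged from 2074 to 3115 with a median of 2971.

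The next 3 regions by highest score were at 500 or more in all 18 libraries. Near Gm39469 (chr9:124256026-124258567) the scores ran from 1678 to 2927 with a median of 2346. Near the pseudogene Gm5960 (chr15:75085038-75087645) they ran from 1179 to 2691. A region 53852 bases from Gm48310, at the beginning of chromosome 12 (chr12:3109060-3110927), ran from 1223 to 2361. These 3 lie outside genes. Lower in rank, a region 34079 bases from the noncoding RNA gene 2700054A10Rik (chr17:13588173-13591841) ran from 494 to 1348 with a median of 966 and was at 500 or more in 17 libraries.

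Within protein-coding genes, the highest scores lay in Sfi1, Chl1, Aida and Uxs1, and all 18 libraries were at 500 or more in each. Sfi1 encodes a centrin-binding protein of the centrosome, and its region also covers the pseudogene Gm11400 (chr11:3149185-3151664, median 1618). Chl1, a cell adhesion protein of the L1 family, had a median of 1293 (chr6:103648151-103649864). Uxs1, which makes UDP-xylose for proteoglycans, had a median of 1239 (chr1:43777072-43779319), and Aida, an axin-interacting protein, 1089.0 (chr1:183298726-183300389). Next came Ranbp3l, a Ran-binding protein (chr15:9015122-9016600, 497 to 1047), and Washc2, a subunit of the WASH complex that builds actin on endosomes (chr6:116250599-116253464, 409.7 to 940.5). Gm7592 (chr1:85548338-85550759) ran from 189 to 748. None of these genes belongs to the contractile apparatus. Exons and introns were not told apart, since no exon positions were used here.

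Genes known from multicopy sequence were among the hosts. The region chr17:39842693-39849166 covers Rn18s-rs5, a sequence related to the 18S ribosomal RNA gene that the table classes as a pseudogene, and overlaps the noncoding RNA gene AY036118. Sham libraries scored 483, 1262 and 950.5, those of 10 min 648, 580.4 and 462, and those of 1 h 875, 308 and 637. The 6 h libraries scored 564, 585 and 505, those of 24 h 154, 414 and 565, and those of 72 h 615, 742 and 863. The sham libraries held both the highest value and one of the lower ones, and every group overlapped sham.

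The region chr1:24611035-24616311 covers the pseudogenes Gm10222 and Gm10925. The gene table lists mt-Atp6, the name of a mitochondrial ATP synthase subunit, among the other names of Gm10925. Sham libraries scored 856, 264 and 787, those of 10 min 423, 950.1 and 532, and those of 1 h 511, 525 and 1046. The 6 h libraries scored 939, 775 and 833, those of 24 h 466, 421 and 533, and those of 72 h 149, 177 and 314. The sham mean of 636 ± 324 compared with 849 ± 83.5 for 6 h libraries, 473 ± 56.2 for those of 24 h and 213 ± 88.5 for those of 72 h (SD, n = 3 each). Every 72 h library lay below every library of the other MI groups, while sham replicate 2 lay among the 72 h values. Lists were longest at 72 h (56084 ± 6528 peaks; SD, n = 3), and the part of list length in this region was not tested.

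Duxf3 encodes a double homeobox factor of the Dux family, which acts in the early embryo. Its region (chr10:58229220-58234585) ran from 82.4 in 24 h replicate 1 to 590.5 in 6 h replicate 1, with a median of 292 and a 7.16-fold ratio of highest to lowest. Libraries of 1 group lay far apart: sham scored 539, 93.0 and 326, and the 72 h libraries 390.4, 95.02 and 437.

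The regions differed in how steady they were. The ratio of the highest to the lowest score over libraries with a peak had a median of 2.39 and reached 12.9. The largest ratio was that of the region inside Mov10, an RNA helicase that restrains retrotransposons (chr3:104797950-104799705). Sham libraries scored 106, 187 and 667, those of 10 min 128, 437 and 141, and those of 1 h 124, 128 and 155. The 6 h libraries scored 678, 776 and 263, those of 24 h 98.6, 60.2 and 161, and the 72 h libraries with a peak 441 and 528. High and low libraries occurred together in sham, 10 min and 6 h. The region at chr2:98661322-98665551 had a ratio of 12.8, from 103 to 1311, although it lies 415 bases from a region at the ceiling in 17 libraries. Of the 51 regions with no value at the ceiling, the steadiest was that near AY761185 (chr8:20945537-20949109), at 511 to 724 in all 18 libraries.

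Peaks began and ended at similar places in the libraries. For the 46 regions with exactly 1 peak in each list, the SD of the start over 18 libraries had a median of 152 bases and that of the end 133 bases. For 5881 other autosomal regions with 1 peak in each list these were 132 and 134 bases. In 8 regions at least 1 list held more than 1 peak. The median width was 2207 bases (1092 to 7682), against 2054 for the regions from 250 to under 500.

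Some regions moved alike over the 18 libraries. Of 1326 pairs of 52 regions, the 3 at the ceiling in 17 or 18 libraries left out, the most alike were the region near Gm8797 (chr3:5859683-5861295) and that near Gm46033 (chr8:15519480-15520571), with a Spearman rho of 0.876. The region near Gm8797 was also like those in Lars2, the mitochondrial leucyl-tRNA synthetase (rho 0.853), and in Gphn, the receptor anchor gephyrin (rho 0.847). These values were picked as the highest of all pairs and describe 18 libraries that differ in list length; the median rho over all pairs was 0.176. In the 3 libraries where it was highest, the region near Gm8797 scored 570 (sham replicate 1), 450.3 (6 h replicate 2) and 385 (72 h replicate 1). Gphn was highest in the same 3, at 398, 516 and 465. They came from 3 groups. The least alike pair was the region with Gm10222 and Gm10925 and that near Tspyl5 (rho -0.767).

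The regions were spread over 16 of 19 autosomes, with 6 each on chromosomes 1 and 13 and 0 on chromosomes 7, 18 and 19. Within 100000 bases of each other lay 5 pairs, 10 of 55 regions (18.2%), and no cluster had 3 or more. On chromosome 11 both members of a pair lay in Sfi1, 36792 bases apart, and the first was higher in all 18 libraries (median 1618 against 382). On chromosome 13 the pair at Tmem267 was separated by 143 bases, on chromosome 2 the pair near Gm33780 by 415 bases, on chromosome 5 the pair at Gm17019 by 27966 bases, and on chromosome 17 the pair at Gm41530 by 62570 bases. Of the 959 regions from 250 to under 500, 14.7% had another of that set within 100000 bases. Of the 7531 regions with a peak in all 18 libraries, 52.7% did. A larger set gives more neighbours by its number alone, so these shares are not directly comparable.

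The end of the chromosome where numbering begins held several of these regions. Before position 4000000 lay 6 regions (10.9%), on chromosomes 4, 10, 11, 12 and 13, against 2.29% of the regions from 250 to under 500, 1.39% of those with a peak in all 18 libraries and 0.777% of all autosomal regions.

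By gene, 33 of 55 regions (60%) lay within a gene, 26 (47.3%) within a protein-coding gene, 8 (14.5%) within a long noncoding RNA gene and 6 (10.9%) within a pseudogene. For all autosomal regions these shares were 60.4%, 50.5%, 10.4% and 2.58%, and for those from 250 to under 500 they were 45.7%, 34.3%, 7.72% and 6.36%. A gene start lay under 6 regions (10.9%), against 2.50% of the regions from 250 to under 500 and 1.72% of all. A start counted where the merged region met its window. That of Gm41530 was touched by a peak in only 3 libraries and covered whole in 0. Wide regions meet a gene or a gene start more easily, and width was not matched for gene starts. By midpoint, 52.7% of the 55 regions and 59.0% of all autosomal regions lay within a gene.

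**Figure D3:**
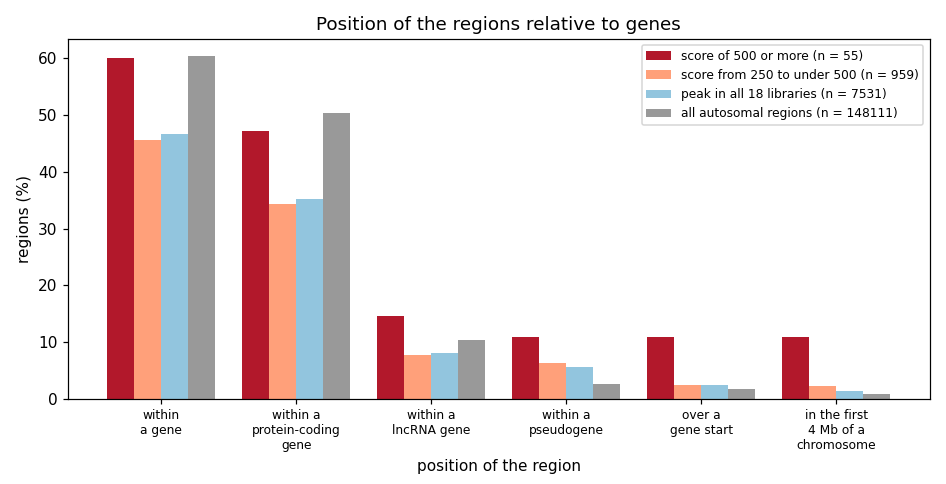
Percentage of regions (vertical axis) at each kind of position (horizontal axis) for the 55 regions, for those from 250 to under 500, for those with a peak in all 18 libraries and for all autosomal regions. The shares of regions at gene starts and in the first 4 Mb of a chromosome are each 10.9% for the 55 regions, against 1.72% and 0.777% of all autosomal regions.

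Gene lists were compared with the regions. Of 20 contractile genes, including those of actin, myosin and troponin, 18 had an autosomal region, and the highest score among their 121 regions was 240; 0 of 20 held a region of the set. Of 32 imprinted genes in the table, which carry methylation on the copy from a single parent, 29 had a region, the highest score among 185 regions was 367 and 0 held a region of the set. The set makes up 0.0371% of autosomal regions, so 0 among so few says nothing about either list. Of 15 genes known for variable copy number, 11 had an autosomal region. Among them Sfi1 alone held regions of the set, the pair on chromosome 11. Of 3 ribosomal RNA genes in the table, only Rn18s-rs5 had an autosomal region, and that region was in the set. Symbols of 13 predicted genes of repeat-rich assembly sites matched 0 rows of the table and were not analysed here.

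The comparison between groups asked whether these regions differed with time after ligation. A peak was gained when all 3 libraries of a time and 0 of 3 sham libraries had it, and lost in the opposite case. No region of the set was gained or lost at any time (0 of 55). With a peak in all 18 libraries in 54 of them, and in all but 72 h replicate 1 in Mov10, none could be. The 0 therefore says nothing about change in the set. Over all autosomal regions, in order of time, 0.218%, 0.223%, 0.203%, 0.394% and 0.724% were gained. Lost were 0.627%, 0.55%, 0.707%, 0.524% and 0.401%. A two-sided Fisher's exact test of the presence of a peak in 15 MI against 3 sham libraries, adjusted by Benjamini-Hochberg over 152196 regions, called 0 regions of the whole series (0%), with 1306 at an unadjusted p under 0.05. No region of the set was among those, and with a peak in nearly every library the test had almost nothing to compare in it. The smallest unadjusted p of this Fisher's exact test was 0.00123. With only 1306 regions under 0.05, that is too large to pass the adjustment. The 0 for the whole series therefore does not show that no region changed. Replicates were separate mice by the design text.

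Group means of score lay below sham in most regions for the times up to 24 h. The mean was below that of sham in 43, 42, 43 and 43 of 55 regions for the first 4 times in order, and in 27 for 72 h. As shares these were 78.2%, 76.4%, 78.2%, 78.2% and 49.1%, against 70.5%, 67.2%, 74.9%, 66.7% and 47.2% of the 7531 recurrent regions. Lower group means were thus common to recurrent regions in general. A library's median score over the 55 regions averaged 519 ± 64.1 in sham and, in order of time, 432 ± 20.3, 454 ± 10.1, 435 ± 59.0, 432 ± 25.5 and 512 ± 64.2 (SD, n = 3 each). Only the 10 min libraries (412 to 453, the highest 452.77) lay wholly below the sham libraries (453.47 to 582), and by less than 1 point. Regions at 500 or more numbered 28.3 ± 5.03 per sham library and, in order of time, 19.7 ± 1.53, 23.3 ± 1.15, 21.0 ± 6, 20.7 ± 3.06 and 29.0 ± 7.81. Sham and 72 h, the groups with the highest values, also had the longest lists, at 51287 and 56084 peaks on average, against 42620 to 48529 in the other groups. The regions were also chosen on their highest score, which lay in sham replicate 2 for 14 of 55. In 72 h replicate 1 and in 72 h replicate 2 it lay for 9 regions each. Such a choice can raise the means of these groups. The parts of list length and of the choice in these scores were not tested.

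Score ranges of a time and of sham were set apart in few regions. All 3 scores lay below all 3 sham scores in 6 of 55 regions at 10 min (10.9%), against 9.8% of the 7531 autosomal regions with a peak in all 18 libraries. The 1 h libraries did so in 1 region (1.82%, against 8.27%) and the 6 h libraries in 6 regions (10.9%, against 10.9%). The 24 h libraries did so in 5 regions (9.09%, against 8.67%) and the 72 h libraries in 3 regions (5.45%, against 3.31%). All 3 scores lay above sham in 1 region for 24 h (1.82%, against 2.26%) and in 0 regions for the other times, where 1.43% (10 min), 2.26% (1 h), 1.31% (6 h) and 4.01% (72 h) of recurrent regions did. Shares below sham were thus near those of recurrent regions in general, except for the single region of 1 h. All 5 comparisons share the sham libraries. Without sham replicate 3 the numbers below sham were 21, 10, 16, 16 and 9 in order of time. Fewer sham libraries make non-overlap easier in any region. The share of recurrent regions was not computed without that library, so these numbers cannot be set against the shares above.

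The region with Sfi1 and Gm11400 lay below sham at 4 of 5 times. Sham libraries scored 1795, 2031 and 1806, those of 10 min 1612, 1049 and 1626, and those of 1 h 1815, 1489 and 1835. The 6 h libraries scored 1624, 1774 and 1482, those of 24 h 1571, 1375 and 1565, and those of 72 h 1751, 1363 and 1522. Of 15 MI libraries only 1 h replicates 1 and 3 reached the sham range. The sham mean was 1878 ± 133 and that of 24 h 1504 ± 111 (SD, n = 3 each).

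The region near Gm5960 lay below sham at 10 min, 24 h and 72 h. Sham libraries scored 2602, 2102 and 2572, those of 10 min 2056, 2018 and 1848, and those of 1 h 2045, 2034 and 2483. The 6 h libraries scored 2196, 2691 and 2207, those of 24 h 1179, 1402 and 1953, and those of 72 h 1285, 1442 and 2079.6. The highest 72 h library (2079.6) lay just under the lowest of sham (2102), and the 1 h and 6 h libraries overlapped sham.

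The region within Aida lay below sham at 1 h (979, 1304 and 1091) and at 72 h (1087, 828 and 1087), with the sham libraries at 1469.6, 1351 and 1551. Its highest score, 1752, came at 6 h, beside 907 and 1003. The region within Gm33838 was the one above sham, at 24 h, where all 3 libraries were at the ceiling of 3100 and the sham libraries at 3095, 2461 and 2221. The gap to the highest sham library was smaller than the spread among the sham libraries, and the ceiling hides what lies above it.

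At 10 min the regions near Gm3318 and in Mlc1 also lay below sham, and at 6 h those in Uxs1, Gm17019 and Mlc1. So did that near Gm24230 at 6 h and 24 h and that in Lars2 at 24 h. Last came the region at 3110070M22Rik and Tmem267 at 10 min and 6 h, and that near 4930559C10Rik at 10 min and 24 h. Mlc1 reached 500 only in sham replicate 2 (507), so the rule chose it on a sham value and favours this direction. For the region near 4930559C10Rik (chr12:93576110-93577844) the sham scores were 1239.8, 1107 and 1218, those at 10 min 734, 609 and 793, and those at 24 h 806, 899.9 and 1018. The sham mean was 1188 ± 71.3 and that of 10 min 712 ± 94.1 (SD, n = 3 each). The region at Lars2 (chr9:123461527-123462884) scored 616, 431 and 317 in sham, while the 24 h libraries scored 177, 191 and 259.6 and those of 72 h 619, 635 and 469.

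**Figure D4:**
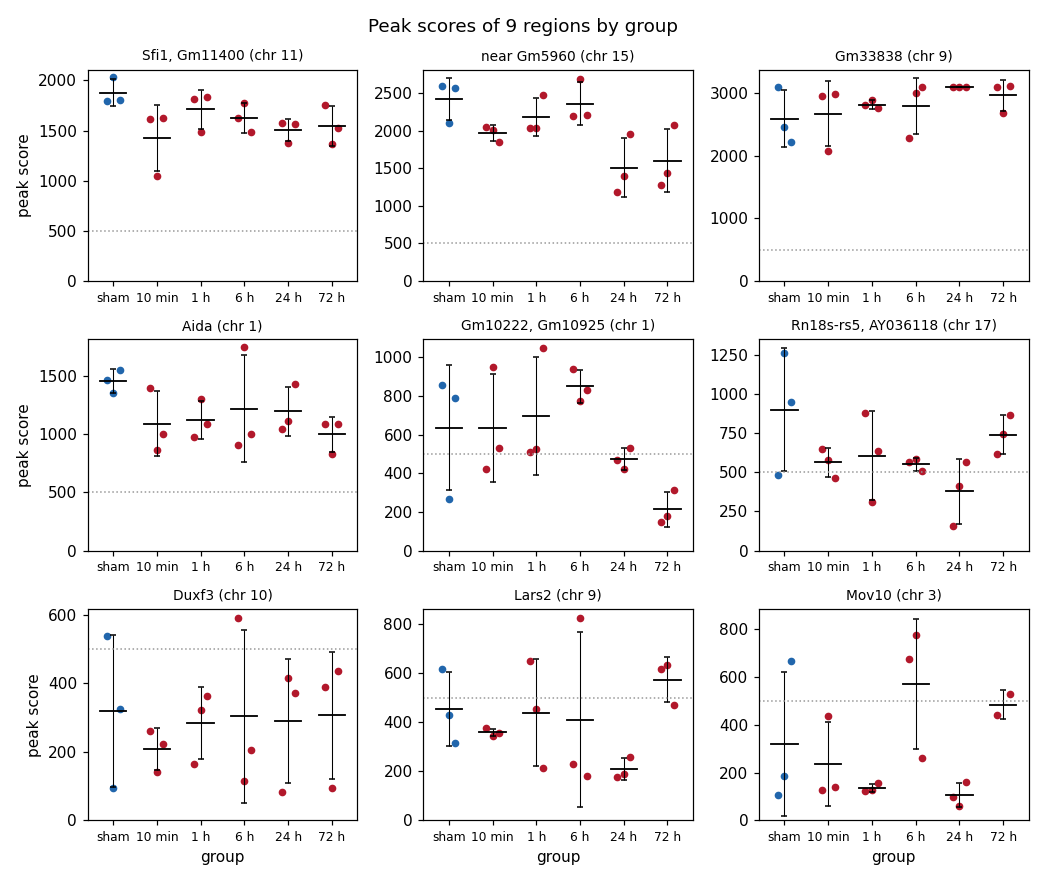
Peak score (vertical axis, linear from 0) of 9 regions in each library by group (horizontal axis), sham in blue and MI in red, with the mean as a line and the SD as a bar (n = 3, or 2 for Mov10 at 72 h, where 1 library had no peak). The dotted line marks a score of 500; the Gm10222 and Gm10925 region is at 149, 177 and 314 at 72 h, and the 24 h points of Gm33838 all sit at 3100.

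The threshold of 500 cut through a run of close scores. Just inside were those in Mlc1, a membrane protein of astrocytes (chr15:88974411-88976834, highest score 507), near Gm13533 (chr2:57628835-57629933, 513) and in Cartpt, which encodes a neuropeptide (chr13:99900975-99904425, 514). Just outside were those in Bptf, a subunit of a nucleosome remodeller (chr11:107048103-107051824, 496), near Mms22l (chr4:24477825-24479768, 495) and in Gm18562 (chr13:13337476-13341006, 486). All 6 had a peak in all 18 libraries.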

How the data were processed

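MeDIP-seq was run on heart muscle DNA of 18 mice, 3 in each of 6 groups, and replicates are separate mice by the design text. The authors deposited 1 peak list per library with a score for each peak, and the peak names carry the name MACS, per the files themselves. Bowtie2, MACS2 and mm10 are named in the submitters' processing notes, without versions or settings, and neither the scale of the score nor whether an input library served as control is given in the sources used here. Lists held 34255 to 60653 peaks. Read depth is unknown, so no interval for counting error is given, and list length is the only sign of depth. A peak's presence and score depend on depth and on the caller's limits.

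Peaks of all 18 lists were merged where they shared at least 1 base, and a library's score in a region is its highest peak there. Autosomal regions with a score of 500 or more in any library were kept. Genes came from RefSeq tables (GRCm38.p6, the build also called mm10), and start windows run from 250 bases before to 50 after a start. Regions were compared with autosomal regions whose highest score was 250 to under 500, with those having a peak in all 18 libraries and with all autosomal regions. Peak presence was tested with a two-sided Fisher's exact test and Benjamini-Hochberg adjustment over all regions (Python 3.11.15, numpy 2.4.6, pandas 2.3.3, scipy 1.17.1). As an alternative, an exact test within replicate numbers was used. Both were tested on simulated data in which a far larger share of regions had the most extreme pattern. That simulation does not show that either test could call a region in these lists. Exact tests of 3 against 3 libraries were not used for single regions.

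The regions and gene lists were chosen with earlier results of these data known. Regions named are the 15 with the highest score, the 5 others with most libraries at 500 or more, the 10 highest in or at the start of protein-coding genes, those nearest the threshold, and those at genes of the lists. Start windows were printed for regions over a gene start. The regions set apart from sham, the pairs most alike, Duxf3 and the regions in clusters were named after their values were seen. Gene position by midpoint was an alternative added after seeing the data.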

Additional observations from a re-analysis of the deposited data

Results flagged for a closer look

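In 8 regions all 3 libraries of a time scored above the mean of the sham libraries, and all 3 of another time scored below that mean. The difference between the times was not tested. Such opposite directions were looked for in 570 comparisons (57 measures over 10 pairs of times) and found in 19. How many recurrent regions outside the set would meet this rule was not counted, so the 8 show no trait particular to the set. All pairs are measured against the same sham libraries. Differences below are the later mean less the earlier one.

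The region with Gm10222 and Gm10925 was above the sham mean at 6 h and below it later, with differences of -375.5 to 24 h and -635.6 to 72 h. In 6 of the others the 72 h libraries lay above the sham mean and those of an earlier time below it; at no time did all 3 scores of these regions lie above all 3 of sham. The second region in Tmem267 (chr13:119493694-119495644) differed by 235 from 10 min, 315.3 from 6 h and 218.6 from 24 h. Lars2 differed by 215 from 10 min and 365.4 from 24 h, and the region near Gm3318 by 228.8 from 10 min and 188 from 24 h. Dhx8, an RNA helicase of splicing, differed by 129.9 from 10 min, 107.8 from 6 h and 103.2 from 24 h. The region near Tspyl5 differed by 121.6 from 10 min, 123 from 1 h and 114.7 from 24 h, and that near Smgc by 204.3 from 10 min. Near Smgc the 72 h libraries scored 524.4, 221.2 and 243.5, and the second lay barely above the sham mean of 220.5. The regions near Gm3318 and near Smgc and the second in Tmem267 reached 500 only in 72 h libraries. The rule that chose them thus favoured high 72 h values there. Lists were longest at 72 h, and the part of list length was not tested.

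The region in Cartpt was above the sham mean at 1 h, though not above every sham library, with differences of 82.45 from 10 min, -66.74 to 6 h and -58.21 to 24 h.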

How the results depend on the processing

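Of 411 values under an alternative, 358 stayed close to the value reported and 53 moved, 37 of them by leaving out 1 library. The causes were not tested. Close was a loose label. It took in 42 regions, against 55, when 500 was required in at least 2 libraries. Chaining at 1000000 bases put 29.1% of the regions in clusters, against 18.2%, and was labelled close too. With a score threshold of 400 there were 93 regions, 88 of them with a peak in all 18 libraries and 66 at the threshold in 2 or more. With that threshold, the regions with all scores below sham numbered 12 (10 min), 3 (1 h), 11 (6 h), 9 (24 h) and 6 (72 h), those above sham 1 (10 min), 1 (1 h) and 3 (24 h), and 1 was gained or lost. A threshold of 600 gave 34 regions, 33 with a peak in every library. Chaining at 20000 bases put 7.27% of the regions in clusters. Requiring 50% of a region under peaks gave 1 gained or lost.

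Leaving out 1 library in turn gave 52 to 55 regions, 51 to 54 of them with a peak in every library left. Regions below sham then numbered 5 to 21 (10 min), 1 to 10 (1 h), 5 to 19 (6 h), 4 to 16 (24 h) and 3 to 9 (72 h). Those above sham numbered 0 to 2 (10 min), 0 to 3 (1 h), 0 to 1 (6 h), 1 to 2 (24 h) and 0 to 5 (72 h). Fewer libraries make non-overlap easier, and the matching shares of recurrent regions were not computed. Without sham replicate 3, regions below sham numbered 21, 10, 16, 16 and 9 in order of time. Without sham replicate 1 they numbered 6 (1 h) and 10 (24 h), and without sham replicate 2 11 (10 min), 5 (1 h), 9 (24 h) and 6 (72 h). For 10 min the count was 14 without its replicate 1 and 10 without its replicate 3. For 1 h it was 4, 5 and 7 without replicates 1, 2 and 3. For 6 h it was 19 without replicate 2, for 24 h 14 without replicate 3 and for 72 h 6 without replicate 2. The counts above sham, 0 or 1 as reported, moved by 1 or more when any of 11 libraries was left out and reached 5 without 72 h replicate 3.

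Replicates are separate mice, and nothing in the labels ties mice of the same number. Deviations from group means over the 7531 recurrent regions correlated at -0.0765 to 0.0895 in 45 same-numbered pairs of libraries, and at -0.121 to 0.0755 in the other pairs. With the replicate number as a block, an exact test of peak presence called 0 of the 55 regions and 0 of the whole series at an adjusted p under 0.05 (1129 at an unadjusted p under 0.05). The smallest unadjusted p of this exact test was 0.00463, too large to pass the adjustment with so few regions under 0.05. It therefore could not have called a region. Read depth is unknown, which limits how scores of different libraries compare.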

Other observations

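On the sex chromosomes 4 further regions had a score of 500 or more, and all 4 had a peak in all 18 libraries. The region 79277 bases from Asmt (chrX:170757331-170758751) was at 500 or more in all 18, with a median of 1206 and a highest score of 1390.1. Asmt, the last enzyme of melatonin synthesis, lies in the mouse pseudoautosomal region, which the X and Y chromosomes share. The region near Gm46700 on the Y chromosome (chrY:11857214-11858739) reached 1769 with a median of 452 and was at 500 or more in 7 libraries. The regions near Gm21711 (X, highest 521) and near Mid1-ps1 (Y, highest 537) were each at 500 or more in a single library.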
